A study of Mus musculus with 6 samples.

Results

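The 10 genes described here encode neurofilament and axonal cytoskeleton proteins and were chosen by name: Nefl, Nefm, Nefh, Ina, Prph, Mapt, Map2, Map1b, Tubb3 and Gap43. All 10 were found by their symbols among the 27378 genes listed in each library, and all 10 passed the filter on low values (a mean of at least 1 FPKM, fragments scaled by gene length and library reads). RNA was sequenced from the whole brains of male wild-type C57BL/6J mice, a common inbred strain. In the PS group polystyrene nanoplastics were delivered through the nose over 28 days, and in the control group sterile distilled water was delivered in the same way for 28 days. Ages are not given in the sources used here. Each group held 3 libraries, and the labels do not say whether each library came from a separate animal or a pool, so the tests measure the spread between these libraries, which may be partly technical.

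Neurofilaments are the intermediate filaments of neurons. They are copolymers of the light, medium and heavy chains encoded by Nefl, Nefm and Nefh with alpha-internexin (Ina) and, in neurons that project to the periphery, peripherin (Prph), and they set the calibre of large myelinated axons. Microtubules, built in neurons partly from the class III beta-tubulin of Tubb3, run beside them and are stabilised by tau (Mapt) in axons, MAP2 (Map2) in dendrites and MAP1B (Map1b) in growing processes. GAP-43 (Gap43) is a membrane-bound protein of growth cones and axon endings. Neurofilament chains released from damaged axons are measured in blood and cerebrospinal fluid as markers of amyotrophic lateral sclerosis (ALS), the disease named in the title of the series. RNA levels measure neither filament protein nor its release.

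No gene of the 10 passed the test between PS and control brains. The groups overlapped in all 10 genes, and log2 fold changes ran from -0.055 in Map2 to 0.149 in Nefm. What differed most was 1 control library: in control replicate 2 the transcripts of Nefl, Nefm, Nefh and Prph stood well below the other 5 libraries, whereas Mapt, Map2, Map1b and Gap43 did not. Without that library Nefl was lower in every PS library than in both remaining control libraries, as were 12.9% of all tested genes, and it did not pass the test over all genes.

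Promoters are shown for 3 genes that differ in how widely they varied between the libraries. Those of 5 genes were matched by symbol in RefSeq's table for the mouse build GRCm38.p6, another build than the GRCm39 of the deposited values. The 100 bases before the annotated start are printed 5′ to 3′ on the strand of the gene, with the motif TATAA, sought on both strands, in capitals. Prph, the most variable gene, lies at chr15:99055074-99055173 on the plus strand. Ina, an intermediate filament gene that varied little, lies at chr19:47014581-47014680 on the plus strand. Tubb3, the most abundant of the 10, lies at chr8:123411453-123411552 on the plus strand.
Prph: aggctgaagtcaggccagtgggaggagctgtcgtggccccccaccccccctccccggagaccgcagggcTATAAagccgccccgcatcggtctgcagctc
Ina: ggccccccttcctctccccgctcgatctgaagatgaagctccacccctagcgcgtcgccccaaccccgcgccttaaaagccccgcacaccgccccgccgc
Tubb3: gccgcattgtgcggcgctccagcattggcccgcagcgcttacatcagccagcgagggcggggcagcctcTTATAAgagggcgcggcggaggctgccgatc

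The capitals of Prph and Tubb3 begin 31 bases before the start, and in Tubb3 matches on both strands overlap. Of the 5 promoters, 3 (Prph, Tubb3 and Map1b) hold TATAA in this window, against 10.2% of the 32851 promoters in the table. The match in Map1b begins 99 bases before the start, at the far edge of the window. Nefl, Nefm and Nefh were not among the 5. The window of all 5, Map2 included, holds GGGCGG on either strand, against 24.7% of all promoters, and only that of Tubb3 holds CCAAT, against 18.9%. These are matches of letters, and binding was not measured.

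Depth was alike in all libraries. The FPKM values move in whole steps, from which totals of 39239183 to 40335590 reads per library were recovered. Between 5396 and 58164 reads lay behind each value of 9 of the genes, so counting error is small for these. Prph rests on 115 to 360 reads. The matching gene lengths ran from 1310 bases for Gap43 to 21732 for Map2. FPKM divides reads by these lengths, 12298 bases for Map1b and 8419 for Mapt among them. Whether the lengths match the transcripts expressed here was not tested, which limits the order of levels between genes but not comparisons between libraries. On the leading principal component of all tested genes, control replicate 2 scored -17.46 and the other 5 libraries -2.93 to 8.21, and results that rest on it are given with and without it.

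On the FPKM scale, over the 6 libraries, Tubb3 was the most abundant at 230.3 ± 16.47 (SD, n = 6), followed by Nefl at 181.8 ± 22.34, Gap43 at 148.1 ± 9.965, Map1b at 107.1 ± 7.592 and Nefm at 101.9 ± 16.64. Lower levels were those of Ina at 84.45 ± 4.892, Nefh at 54.11 ± 10.61, Mapt at 51.4 ± 1.771 and Map2 at 46.9 ± 3.718. Prph was far below the rest at 2.63 ± 0.9201. Neighbours in this order did not all keep it. Map1b exceeded Nefm in 3 of 6 libraries, and Nefm exceeded Ina, Nefh exceeded Mapt and Mapt exceeded Map2 in 5 of 6. The other neighbours kept their order in 6 of 6.

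The 3 neurofilament chains were described first. Nefl, the light chain that every neurofilament needs for assembly, stood at 185.4, 180.2 and 178.8 FPKM in PS replicates 1, 2 and 3, against 210.2, 142.7 and 193.5 FPKM in control replicates 1, 2 and 3. The PS values lay close together, between the highest and lowest control values. The group levels were 181.5 ± 3.472 FPKM in PS and 182.2 ± 35.14 in control brains (SD, n = 3 each). The log2 fold change of PS over control, taken here and below on log2(FPKM + 1), was 0.014 (SE 0.124), and its 95% interval ran from -0.268 to 0.296, that is, from 0.83 to 1.23 times the control level (limma, Benjamini-Hochberg adjusted p = 0.996).

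Nefm, the medium chain, whose tail projects from the filament, stood at 114.6, 107.8 and 96.39 FPKM in the PS libraries, against 115.7, 71.07 and 105.8 in the control libraries. Control replicates 1 and 3 lay within the range of PS libraries or just above it, and control replicate 2 lay below all others. The means were 106.3 ± 9.214 and 97.52 ± 23.44 FPKM in PS and control (SD, n = 3 each), with a log2 fold change of 0.149 (SE 0.159) whose interval ran from -0.211 to 0.510 (limma adjusted p = 0.975). Nefh, the heavy chain with the longest tail, which is typical of large mature axons, stood at 60.85, 54.17 and 51.48 FPKM in PS, against 63.11, 34.43 and 60.6 in control. Again control replicate 2 was lowest and the other 2 control libraries were at the upper end. The means of Nefh were 55.5 ± 4.821 and 52.71 ± 15.88 FPKM in PS and control (SD, n = 3 each), with a log2 fold change of 0.119 (SE 0.197) whose interval ran from -0.328 to 0.565 (limma adjusted p = 0.983).

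The other intermediate filament genes, Ina and Prph, differed from each other in spread. Ina, whose product joins the triplet in filaments of the central nervous system, stood at 90.9, 86.51 and 80.54 FPKM in PS, against 88.39, 78.4 and 81.93 in control. All 6 values lay within a narrow band, with control replicate 2 lowest by a small margin. The log2 fold change of Ina was 0.052 (SE 0.069), its interval -0.104 to 0.207 (limma adjusted p = 0.979). Prph, typical of motor, autonomic and sensory neurons, stood at 3.104, 2.511 and 2.01 FPKM in PS, against 3.045, 1.247 and 3.865 in control. The control libraries held both the highest and the lowest value. The log2 fold change of Prph was -0.009 (SE 0.250), its interval -0.575 to 0.556, the widest of the 10 (limma adjusted p = 0.997). The sign of Prph turned with the pseudocount, at 0.024 with 0.1 added in place of 1 and 0.004 with 0.5.

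**Figure D1:**
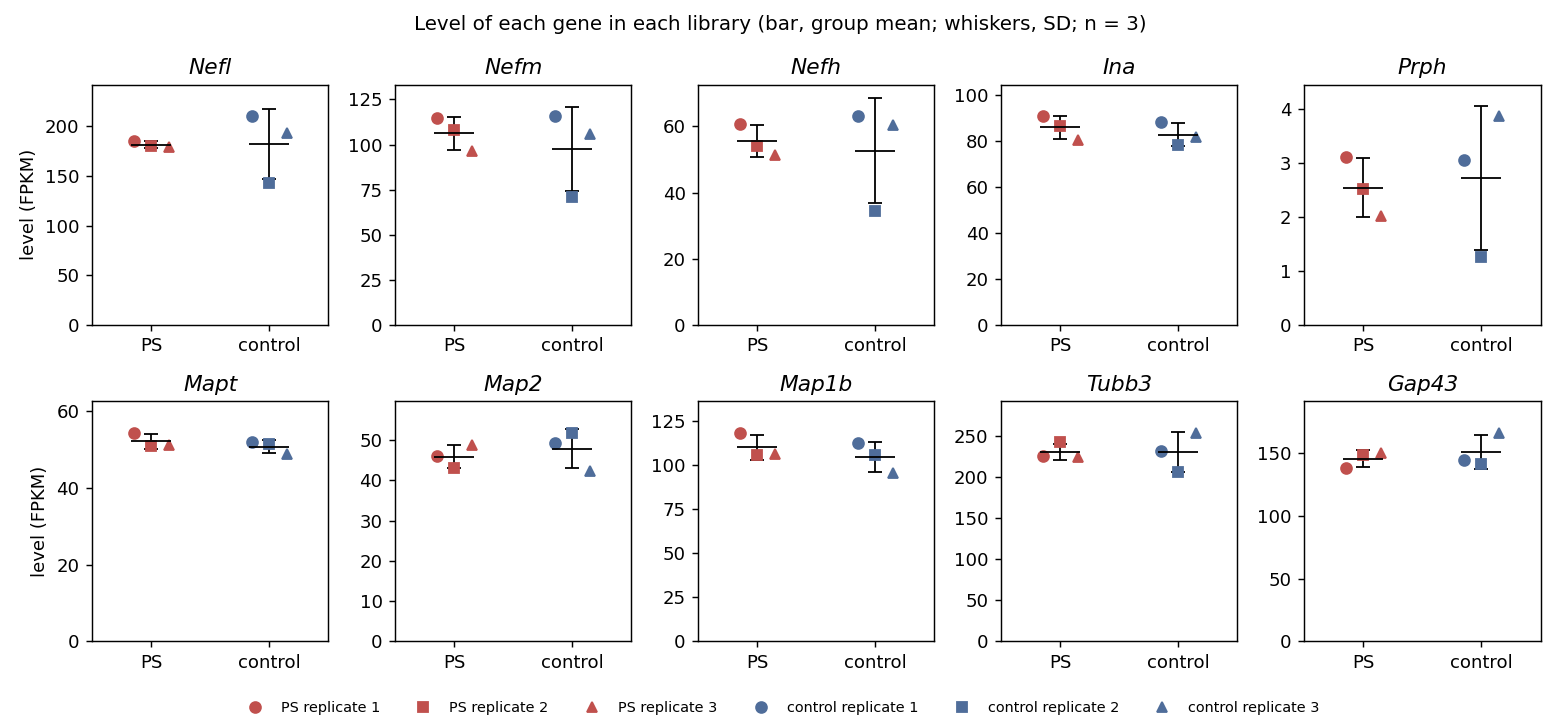
FPKM of each of the 10 genes in each library, PS on the left and control on the right of each panel, with the group mean and SD (n = 3). Control replicate 2 (square) is the lowest library for Nefl, Nefm, Nefh and Prph, with Nefl at 178.8 to 185.4 FPKM in PS and at 142.7 in that library, and the groups overlap in every panel.

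The microtubule genes varied less than the triplet and Prph. Mapt, which encodes tau, stood at 54.34, 50.84 and 51.02 FPKM in PS, against 51.85, 51.46 and 48.87 in control, the narrowest range of the 10 over all 6 libraries. Its interval, from -0.091 to 0.165 on the log2 scale, holds the change between 0.939 and 1.12 times the control level (log2 fold change 0.037, limma adjusted p = 0.98). Map2, the dendritic counterpart of tau, stood at 46.03, 43.04 and 48.74 FPKM in PS, against 49.32, 51.84 and 42.45 in control. Here control replicate 2 was the highest library, not the lowest, and the log2 fold change was -0.055 with an interval from -0.243 to 0.132 (limma adjusted p = 0.98). Map1b, an early-expressed relative that stays on in the adult at lower levels, stood at 118.1, 105.3 and 105.9 FPKM in PS, against 112.1, 105.6 and 95.51 in control. PS replicate 1 was highest and control replicate 3 lowest, and the log2 fold change was 0.073 with an interval from -0.099 to 0.245 (limma adjusted p = 0.975).

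Tubb3, the neuron-specific beta-tubulin, stood at 225.2, 241.9 and 224.4 FPKM in PS, against 231.3, 205.4 and 253.5 in control. The control libraries spanned all the PS values, and the log2 fold change was 0.007 with an interval from -0.178 to 0.192 (limma adjusted p = 0.996). Gap43 stood at 138, 148.5 and 150.2 FPKM in PS, against 144.3, 141.2 and 166.2 in control. The highest library was control replicate 3 and the lowest PS replicate 1, and the log2 fold change was -0.046 with an interval from -0.215 to 0.124 (limma adjusted p = 0.983).

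Over the 10 genes, 0 were called at an adjusted p under 0.05 and 0 had an unadjusted p under 0.05 by limma. No member was called by limma-voom on the recovered reads either. Over all 12229 tested genes, 0.164% were called and 5.94% had an unadjusted p under 0.05. Without overlap between groups were 0 of the 10 genes, against 11.3% of all tested genes. The median log2 fold change was 0.026 over the 10 genes and 0.003 over all tested genes. Of the 10 genes, 7 were above 0 and 3 below, where 51.4% of all tested genes were above 0. A fit that adds the replicate number as a term called 48 genes in place of 20, and none of the 10 was among them. A difference that misses the threshold does not show that the levels are alike. The upper bounds for Nefm and Nefh allow up to 1.42 and 1.48 times the control level. For Prph the bounds are 0.671 and 1.47 times the control value of FPKM + 1. At a mean of 2.63 FPKM the added 1 weighs heavily, so bounds on the Prph level itself would be wider.

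The spread between control libraries set these widths. In control brains, the highest library exceeded the lowest 3.1-fold for Prph, 1.83-fold for Nefh, 1.63-fold for Nefm and 1.47-fold for Nefl. In PS brains the same ratios were 1.54 for Prph, 1.18 for Nefh, 1.19 for Nefm and 1.04 for Nefl. The coefficient of variation between control libraries was 30.1% for Nefh, 24.0% for Nefm and 19.3% for Nefl, against a median of 7.16% over the 7994 genes with a mean of at least 5 FPKM. These values rank at the 99.4, 98.5 and 96.0 percentile of those genes. It was 49.2% for Prph, and between 3.19% for Mapt and 10.5% for Tubb3 in the other 6 genes.

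The lowest values were those of control replicate 2. That library stood at 0.361 times the mean of the other 2 control libraries for Prph, 0.557 times for Nefh, 0.642 times for Nefm and 0.707 times for Nefl. For Mapt, Map1b and Map2 it stood at 1.02, 1.02 and 1.13 times, and for Gap43, Tubb3 and Ina at 0.909, 0.847 and 0.921 times. It was the lowest of the 6 libraries in 6 of the 10 genes, against 30.0% of all tested genes. Nefh had 5396 reads in control replicate 2, against 8228 to 10005 in the other 5 libraries.

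Without control replicate 2 the fold changes of the triplet and Prph turned below 0. That library was the lowest in all of these genes, so leaving it out had to lower their fold changes. Nefl then had a log2 fold change of -0.152 with an interval from -0.282 to -0.021, Nefh of -0.157 with an interval from -0.324 to 0.010, Nefm of -0.061 with an interval from -0.239 to 0.117 and Prph of -0.336 with an interval from -0.643 to -0.030. By limma, the unadjusted p was 0.0274 for Nefl and 0.0347 for Prph, and the adjusted p over all genes was 0.721 and 0.739, so neither passed. These p-values are descriptive only, because the library left out was the lowest in both genes. Nefl was then the only gene of the 10 without overlap between groups, where 22.6% of all tested genes had none. In that fit 0.131% of all genes were called.

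**Figure D2:**
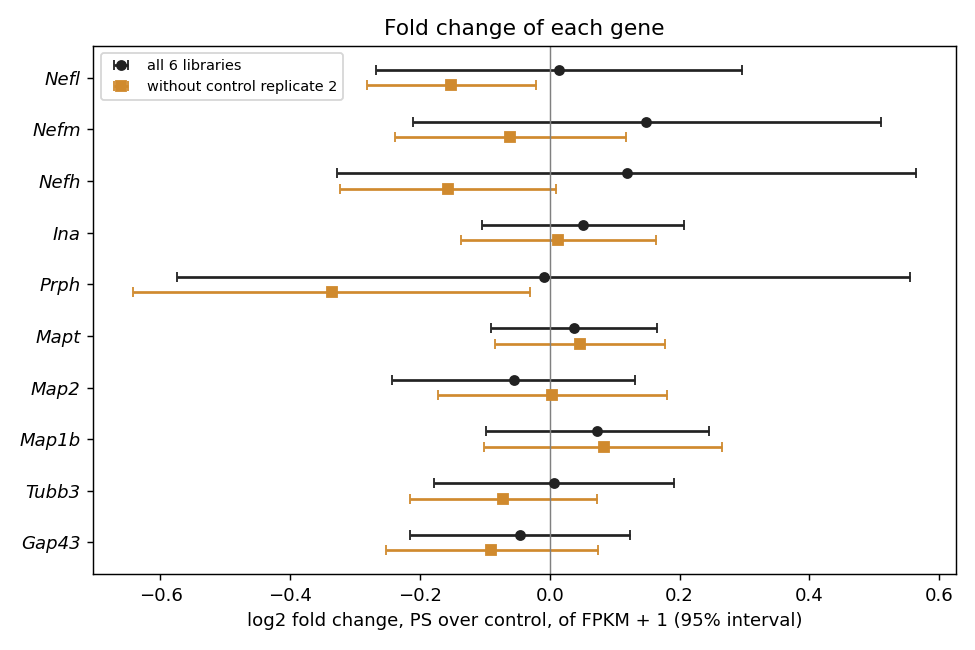
Log2 fold change of PS over control for the 10 genes with 95% intervals from limma, with all 6 libraries (black circles) and without control replicate 2 (orange squares). The intervals with all libraries include 0 for all 10 genes, and leaving out that library moves Nefl to -0.152 and Prph to -0.336.

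Several marker lists of cell types and regions were also lowest in control replicate 2. In bulk tissue, fewer cells of a type and less RNA per cell cannot be told apart. Neuronal identity was present throughout: the 10 pan-neuronal markers summed to 3094 to 3322 FPKM in PS and 3136 to 3236 in control. Of 10 hindbrain and spinal markers, 4 were tested (Hoxa5, Hoxb5, Slc6a5 and Glra1), and all 10 together summed to 15.35 to 24.19 FPKM in PS and 6.637 to 24.7 in control, with control replicate 2 lowest. Slc6a5, the glycine transporter of inhibitory hindbrain and spinal neurons, was at 7.645, 6.939 and 5.775 FPKM in PS, against 7.357, 2.552 and 8.88 in control. Glra1, a glycine receptor subunit, was at 7.578, 5.322 and 5.158 FPKM in PS, against 6.943, 1.943 and 4.716 in control. These are low values, and in both genes control replicate 2 was the lowest library, as for the neurofilament chains.

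Motor and cholinergic neuron markers, of which 4 of 7 were tested, summed to 7.73 to 9.457 FPKM in PS and 6.109 to 11.53 in control, again with control replicate 2 lowest. The motor neuron factor Mnx1 was listed at 0 in 3 of the 6 libraries and at most at 0.03461 FPKM in the others. No sensory ganglion marker passed the filter, and the 6 listed ones summed to 1.003 to 1.334 FPKM in PS and 1.26 to 1.542 in control. Oligodendrocyte markers (8 of 8 tested) summed to 1090 to 1205 FPKM in PS and 790.7 to 1150 in control, with the lowest value in control replicate 2. That library was also lowest for markers of large-fibre neurons and fast-spiking interneurons (380.2 to 435.6 FPKM in PS and 333.4 to 403.7 in control), of thalamus and midbrain (166.7 to 182.3 in PS and 138.8 to 175.6 in control) and of astrocytes (941.3 to 1055 in PS and 884.9 to 1050 in control). The list of peripheral nerve markers was lowest there too (574.9 to 639.8 in PS and 427.3 to 616 in control), but 5 of its 8 markers did not pass the filter. Cortex markers (8 of 8) summed to 370.4 to 415.2 FPKM in PS and 365.9 to 451.4 in control, and here control replicate 2 was highest. By sum that library was highest too for endothelial markers (65.76 to 72.22 in PS and 71.23 to 82.63 in control). The same held for striatum markers (302.7 to 415.9 in PS and 299.5 to 418.5 in control) and those of immature neurons and sensory ganglia. The part of any of these in the neurofilament values was not tested.

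**Figure D3:**
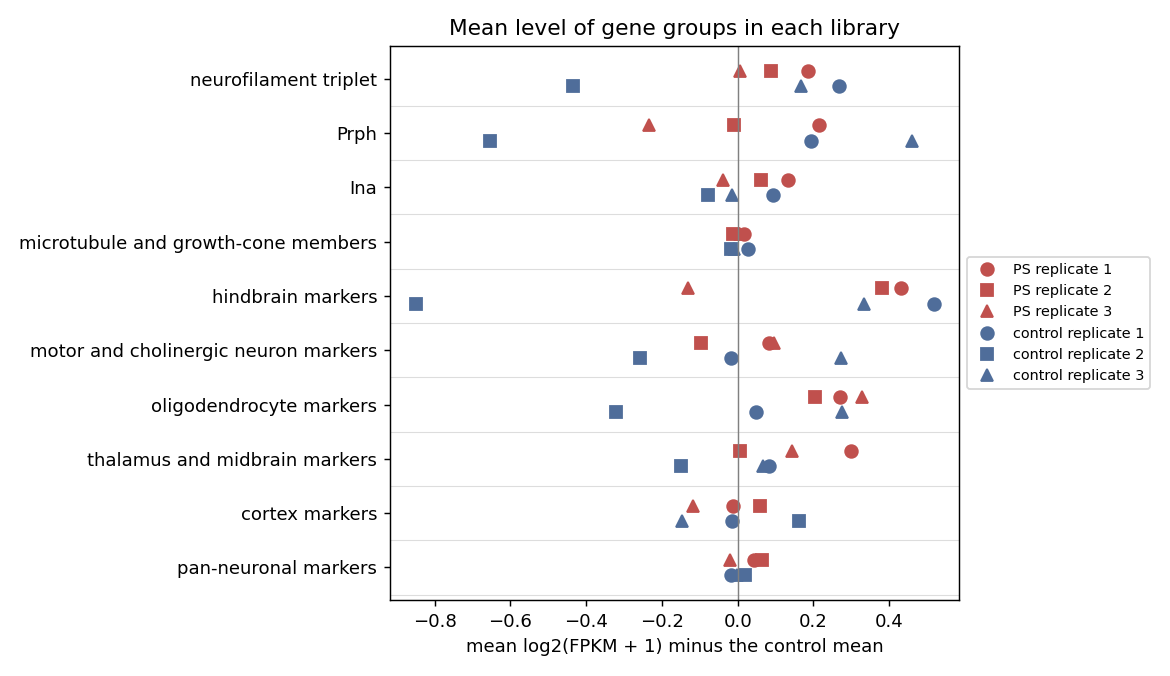
Mean log2(FPKM + 1) of the tested genes of each group (4 for hindbrain) in each library, minus the control mean, with PS in red above control in blue and replicates 1, 2 and 3 as circle, square and triangle. Control replicate 2 lies at -0.434 for the neurofilament triplet and -0.850 for hindbrain markers, but at -0.018 for the 5 microtubule and growth-cone genes and 0.162 for cortex markers.

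Ratios between 2 genes of the same library do not depend on scaling between libraries, so the composition of the filaments at the RNA level was compared in this way. Nefm per Nefl was 0.618, 0.598 and 0.539 in PS, against 0.55, 0.498 and 0.547 in control. PS replicates 1 and 2 were above all control libraries and PS replicate 3 was not, and the log2 difference of PS minus control was 0.137 (two-sided exact permutation p = 0.3). Nefh per Nefl was 0.328, 0.301 and 0.288 in PS, against 0.3, 0.241 and 0.313 in control (log2 difference 0.108, exact permutation p = 0.5). Ina per Nefl was 0.49, 0.48 and 0.45 in PS, against 0.42, 0.549 and 0.423 in control, so control replicate 2 held the most Ina for its Nefl (log2 difference 0.039, exact permutation p = 0.8).

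Among microtubule proteins, Map2 per Mapt was 0.847, 0.847 and 0.955 in PS, against 0.951, 1.01 and 0.868 in control (log2 difference -0.094, exact permutation p = 0.3). The other 4 ratios (Prph per Nefl, and Map1b, Gap43 and Tubb3 per Mapt) had log2 differences from -0.083 to 0.036. Without control replicate 2 the log2 differences were 0.091 for Nefm per Nefl, -0.007 for Nefh per Nefl, 0.166 for Ina per Nefl and -0.044 for Map2 per Mapt. All 8 ratios overlapped between groups, and the lowest p adjusted over the 8 was 0.96. With 3 libraries against 3 the exact test cannot go below p = 0.1.

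**Figure D4:**
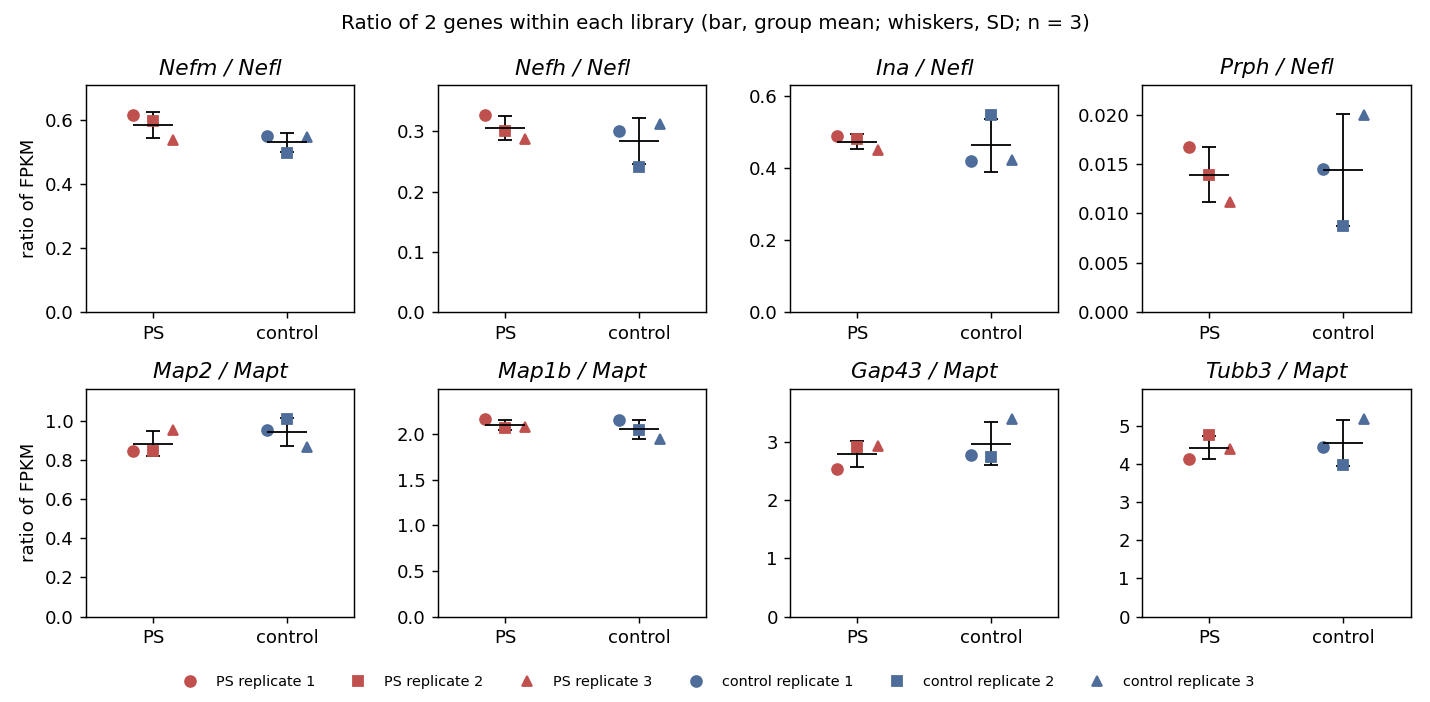
Ratio of the FPKM of 2 genes within each library, PS left and control right in each panel, with the group mean and SD (n = 3). Nefm per Nefl is 0.539 to 0.618 in PS and 0.498 to 0.55 in control, and no ratio separates the groups.

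Other genes of the axonal cytoskeleton were read from 10 lists with 156 different genes, of which 148 were tested. None was called, and 10 (6.76%) had an unadjusted p under 0.05, 7 of them higher and 3 lower in PS, against 5.94% of all tested genes. Of the 148, 90 had positive log2 fold changes, where 51.4% of all tested genes did. List medians ran from -0.010 for kinases and phosphatases of tau to 0.077 for the axonal membrane skeleton, beside 0.003 over all tested genes. The median of the axonal membrane skeleton was 0.019 without control replicate 3, and that of the growth-cone membrane proteins, 0.061, was 0.124 without control replicate 2.

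Of 7 growth-cone membrane proteins, 5 had positive log2 fold changes, where 51.4% of all tested genes did. Of the 7, 3 (the genes named here) had an unadjusted p under 0.05 by limma, against 5.94% of all tested genes. L1cam, an adhesion molecule of growing axons, was at 25.37, 24.34 and 22.41 FPKM in PS, against 20.33, 20.21 and 20.31 in control. The groups did not overlap, as in 11.3% of all tested genes, and the log2 fold change was 0.233 (SE 0.061, limma adjusted p = 0.448). The adhesion molecules Ncam1 and Cntn2 had log2 fold changes of 0.157 and 0.160 (limma adjusted p = 0.716 and 0.838).

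Of 16 genes of the axonal membrane skeleton and node, 13 had positive log2 fold changes, where 51.4% of all tested genes did. Nfasc, which anchors the axon initial segment and the node, was at 18.24, 16.51 and 16.08 FPKM in PS, against 14.9, 14.78 and 14.5 in control (log2 fold change 0.188, limma adjusted p = 0.685). Cntnap1, a protein of the paranodal junction, and Sptbn4, the beta-IV spectrin of the initial segment, had log2 fold changes of 0.127 and 0.117 (limma adjusted p = 0.837 and 0.842). Groups did not overlap in any of these 3, as in 11.3% of all tested genes. The 3 were picked for their low p, and none passed. Medians of marker lists lay on both sides of 0. Below 0 were those of immature neurons (-0.091), olfactory bulb (-0.125), endothelium (-0.073), microglia (-0.045) and cortex (-0.026). Without control replicate 2 these medians were 0.005, -0.149, -0.012, -0.017 and 0.058, in the same order. The hindbrain median was 0.224 with all libraries and -0.221 without control replicate 2. Some other lists lay above 0. Oligodendrocyte markers had positive log2 fold changes in 8 of 8, with a median of 0.258 (0.113 without control replicate 2), cerebellar markers in 10 of 10, with a median of 0.176 (0.183 without that library), and thalamus and midbrain markers in 7 of 7 tested, with a median of 0.164 (0.10 without it). The cerebellar score was highest in PS replicate 1, at 0.455, the library that was also highest for L1cam, Nfasc, Cntnap1 and Cntn2. The part of these markers was not tested.

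Of 23 other microtubule-binding proteins 13 had positive log2 fold changes and 10 negative, where 51.4% of all tested genes had positive ones. Clasp2, which binds growing microtubule ends, had a log2 fold change of 0.155 (limma adjusted p = 0.752), Map6, a stabiliser of neuronal microtubules, of 0.135 (adjusted p = 0.837) and Map10 of 0.194 (adjusted p = 0.848). Among 13 other tubulins, log2 fold changes lay between -0.143 for Tuba8 and 0.090 for Tubg1, with Tuba1b at -0.100, and the lowest adjusted p was 0.943. Because tubulin genes are similar in sequence, how reads were divided among them is uncertain. The stathmins and collapsin response mediators, which bind free tubulin, had a median of 0.028, with Stmn4 at 0.163, Dpysl4 at 0.102 and Dpysl5 at 0.067 (limma adjusted p = 0.856, 0.951 and 0.973).

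Of 15 other intermediate filament genes and partners, 11 were tested, and the lowest p was that of the nuclear lamin Lmnb2, at 4.764, 5.155 and 5.117 FPKM in PS, against 5.772, 5.852 and 5.467 in control (log2 fold change -0.156, limma adjusted p = 0.819). The other nuclear lamin named, Lmnb1, had a log2 fold change of 0.134, and the cytoskeletal linker Dst of 0.145 (limma adjusted p = 0.891 and 0.924). None of 23 kinases and phosphatases of tau and neurofilaments had an unadjusted p under 0.05, with Mark3 at -0.099, Mapk8 at -0.071 and Ppp1ca at -0.063. Nor had any of 9 turnover genes, with the ubiquitin ligase genes Nedd4 and Stub1 at 0.087 and 0.080 and the deacetylase gene Hdac6 at 0.092, or of 21 tested genes of microtubule remodelling, with Ttll5 at 0.170, the tubulin acetyltransferase gene Atat1 at 0.113 and the tubulin cofactor gene Tbca at -0.128.

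Genes linked to injury or regrowth of neurons, not all of them induced by injury, were read as the last list. Of its 18 genes 16 were tested, with 8 in each direction. Sox11, a transcription factor of immature and regrowing neurons, was at 1.085, 1.115 and 1.348 FPKM in PS, against 1.61, 2.271 and 1.412 in control (log2 fold change -0.331, SE 0.117, limma adjusted p = 0.716). Gadd45a, a stress-induced growth arrest gene, was at 5.326, 5.165 and 5.186 FPKM in PS, against 5.804, 5.705 and 6.761 in control (log2 fold change -0.184, limma adjusted p = 0.801). The groups did not overlap in either gene, as in 11.3% of all tested genes. Both genes were picked for their low p, and neither passed. The 7 markers of immature neurons, Sox11 included, summed to 82.14 to 88.09 FPKM in PS and 83.09 to 89.27 in control. Tubb2b (36.97 to 42.71 FPKM) and Neurod1 (21.43 to 29.87) made up most of that sum, so it says little about Sox11. The 7 markers' mean log2(FPKM + 1) minus the control mean was -0.092, -0.077 and -0.122 in PS, against -0.070, 0.123 and -0.052 in control. The median log2 fold change of the 7 was -0.091, and 0.005 without control replicate 2. The adhesion gene Flrt3 had a log2 fold change of 0.097 (limma adjusted p = 0.945). Atf3 and Sprr1a, which mark injured neurons, were below the filter, with Atf3 at 0.4549, 0.5643 and 0.3287 FPKM in PS, against 0.4205, 0.5285 and 0.3446 in control.

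**Figure D5:**
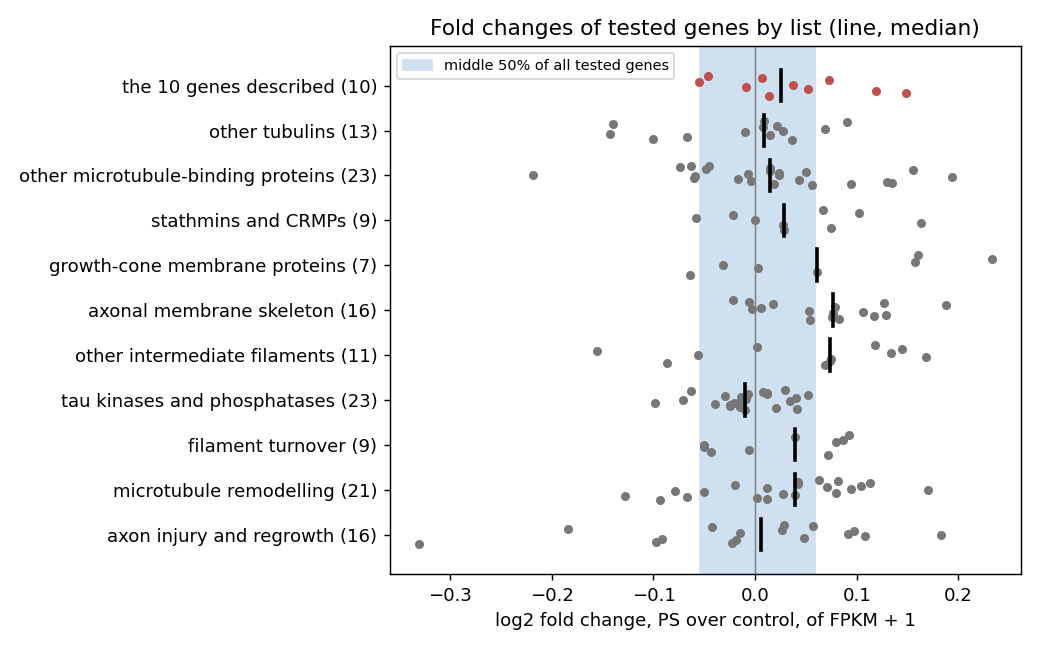
Log2 fold change of PS over control of each tested gene (dots) by list, with the list median (line) and the middle 50% of all tested genes shaded. The 10 genes described have a median of 0.026, and list medians lie between -0.010 and 0.077.

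Genes most like the triplet over the 6 libraries were Anxa5, Camk2g, Ghitm, Uba3 and Tspyl4, by Pearson correlation of log2(FPKM + 1) with the mean of Nefl, Nefm and Nefh among 7856 genes. The correlations were 0.990 to 0.993, and 0.952 to 0.970 over the 5 libraries without control replicate 2. Anxa5, a calcium-dependent membrane-binding protein, was at 41.02, 40.37 and 39.3 FPKM in PS, against 43.4, 31.5 and 41.02 in control, so it shared the low value in control replicate 2. With 6 points and so many genes, high values can arise without any link.

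The sources used here do not give the strand setting of the counting, so reads of overlapping genes are uncertain. In RefSeq's annotation of GRCm38.p6, 6 of the 10 genes overlap another gene, and Nefl and Nefm are neighbours. For Mapt, Map2 and Gap43 the partners are small RNAs, pseudogenes or a predicted noncoding RNA, for which no values are given. Nefm overlaps the long noncoding RNA gene A230070E04Rik, which was listed at 7.358 to 8.304 FPKM in PS and 7.756 to 8.37 in control. Nefh overlaps the predicted gene Gm35321, listed at no more than 0.04041 FPKM, and Ap1b1, at 42.8 to 44.53 FPKM in PS and 41.55 to 46.03 in control, and Ina overlaps Nt5c2, at 12.61 to 13.53 in PS and 12.71 to 13.1 in control. Of A230070E04Rik, Ap1b1 and Nt5c2, Ap1b1 alone was lowest in control replicate 2, by a small margin.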

How the data were processed

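For each library the authors deposited FPKM values in a file of its own. The submitters' processing notes name the build GRCm39 and the tools HISAT2, fastp, HTSeq and R 3.2.0, without order or settings. All 6 libraries were grouped by their labels. The 10 genes and the lists of other genes were chosen with earlier results of these data known.

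Genes with a mean of at least 1 FPKM (12229) were compared as log2(FPKM + 1) with limma 3.58.1 in R 4.3.3 (group only, moderated variance with a trend, two-sided, 4 residual degrees of freedom). Adjustment was by Benjamini-Hochberg over all tested genes, with a threshold of 0.05. Ratios within a library were compared with exact permutation tests over libraries (scipy 1.17.1). The procedure was tested on simulated data. Of each list, up to 3 genes with the lowest p were named.

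Whole reads were recovered, within 0.02 reads, for 99.92% of 26556 genes above 0. The search was for the library totals and gene lengths that make the FPKM whole. Values of 0 were left out of it, so genes above 0 in few libraries fit some length easily. For such genes this share says little about recovery. The recovered reads were used for depth and for 1 alternative, voom. Replicates differed by 8.55 to 31.47 times sampling noise (chi-square per degree of freedom), so none was a copy of another.

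Both groups number their libraries 1 to 3. After subtracting group means, PS and control libraries of the same number correlated at 0.181, 0.185 and 0.161, each over the 0.1 set for pairing, so the number was also tried as a block. The pairing comes from the data, not from the labels.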

Additional observations from a re-analysis of the deposited data

How the results depend on the processing

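None of the 10 genes was called in any of the 19 alternatives to the limma fit, of which the filter at a mean FPKM of at least 5 leaves Prph untested, and the lowest adjusted p among them was 0.174, for Nefl with sample weights. Over all genes 20 were called, against 1 with no filter, 9 at a mean FPKM of at least 5, 48 once the replicate block was added, 632 under sample weights, and 0 to 66 leaving out 1 library, with 0 without PS replicate 2, 2 without PS replicate 1 or control replicate 1 and 66 without control replicate 3. The block changed no call of the 10 genes, and for ratios its exact sign-flip test cannot go below p = 0.25.

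Signs of small fold changes turned. Sample weights gave -0.181 for Nefl, -0.098 for Nefm, -0.155 for Nefh, -0.037 for Ina, -0.026 for Map1b, -0.003 for Tubb3 and 0.010 for Gap43. Quantile normalization gave -0.014 for Nefl, and the total without mitochondrial genes -0.003 for Tubb3. Prph was 0.024 and 0.004 with pseudocounts of 0.1 and 0.5, 0.020 with TPM scaling and 0.028 with voom. Leaving out 1 library gave ranges of -0.152 to 0.126 for Nefl, -0.061 to 0.287 for Nefm, -0.157 to 0.271 for Nefh, -0.336 to 0.221 for Prph, -0.137 to 0.004 for Map2, -0.072 to 0.080 for Tubb3 and -0.090 to 0.027 for Gap43. The ranges of log2 ratio differences were 0.091 to 0.195 for Nefm per Nefl, -0.151 to -0.044 for Map2 per Mapt, 0.000 to 0.073 for Map1b per Mapt, -0.007 to 0.181 for Nefh per Nefl, -0.027 to 0.166 for Ina per Nefl, -0.303 to 0.294 for Prph per Nefl, -0.138 to 0.016 for Gap43 per Mapt and -0.120 to 0.069 for Tubb3 per Mapt. The PS minus control difference of the log2 ratio of Prph per Nefl was -0.023 with 1 added to the FPKM. With sample weights the list medians were 0.024 for the axonal membrane skeleton, 0.133 for growth-cone membrane proteins and 0.015 for other intermediate filaments, and without control replicate 2 that of filament turnover was -0.009. The causes were not tested. Prph rests on the fewest reads, 115 to 360.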
